A study of Homo sapiens with 6 samples.

Results

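The genes described here are 10 ligand, receptor, target and feedback genes of the Notch pathway, taken from a table of 58051 gene rows by matching the Ensembl gene IDs to their symbols. They are the ligands JAG1 and JAG2, the receptors NOTCH1, NOTCH2 and NOTCH3, the repressor genes HES1, HES4, HEY1 and HEYL, and the feedback gene NRARP. All 10 had a row, and 6 of the 10 passed the filter on low counts. The Notch ligand gene JAG1 and the Notch target gene HES1 rose 3.10-fold and 3.35-fold in A375 melanoma cells within 2 h of TGFB1, while the receptor genes NOTCH1, NOTCH2 and NOTCH3 and the target gene HEY1 did not pass the test.

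Notch signalling passes between touching cells. A ligand of the Jagged or Delta family on one cell pulls on a Notch receptor on its neighbour, the receptor is cut by ADAM proteases and then by gamma-secretase, and the freed inner part enters the nucleus and joins the DNA-binding protein RBPJ. Genes of the HES and HEY families, which encode basic helix-loop-helix repressors, are the best known targets of that complex, and in the melanocyte lineage Notch and HES1 are known for keeping melanoblasts and melanocyte stem cells alive.

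The data are RNA-seq read counts from A375, an established human melanoma line grown in medium with 10% serum. Cells without serum for 2 h were given either TGFB1 at 10 ng/mL (3 libraries) or its vehicle, 4 mM HCl with BSA at 1 mg/mL (3 libraries), for 2 h more. Both groups share the line, the starvation and the time. The labels name the HCl and BSA carrier for Vehicle alone, so they do not state what carried the ligand. The design text calls the libraries technical triplicates, so the p-values below measure the spread between these 6 libraries of 1 cell line, which may be technical.

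Library totals ran from 24713894 to 34895075 counts. Vehicle replicate 1 stood apart on the first principal component (-37.1, against -13.4 and -8.25 for Vehicle replicates 2 and 3, and 17.7 to 20.7 with TGFB1), and the changes of the 2 called members without it are given below. No label names a batch. The TGF-beta response gene SMAD7 stood at 7.81, 8.84 and 11.2 CPM (read counts scaled to the library total after TMM, the trimmed mean of M values) in Vehicle and at 63.6, 57.1 and 62.6 CPM with TGFB1, so each library matched its label. Of 12 melanoma and melanocyte markers 7 averaged at least 1 CPM, with AXL the most abundant and MITF at 62.7 CPM in Vehicle. SOX10 was listed at 0 in all 6 libraries, and TYR stood at 0.0315 CPM in Vehicle. The counting mode and strand setting are not stated, so this 0 does not show that SOX10 RNA was absent. The summed level of the 12 markers was 393.4 to 419.3 CPM in Vehicle and 412.8 to 422.3 CPM with TGFB1. AXL alone averaged 225.6 CPM in Vehicle and 252.0 CPM with TGFB1, so the sum mostly reflects AXL. Of these 12 markers MITF passed the test, lower with TGFB1 (53.5 CPM, log2 fold change -0.23, edgeR adjusted p = 0.0355), but it failed when any one of Vehicle replicates 1 and 2 or TGFB1 replicates 1 and 3 was left out (adjusted p = 0.107, 0.229, 0.208 and 0.205). Its part in the changes below was not tested. Among markers of other cell types, 0 of 6 endothelial, 1 of 6 immune, 2 of 5 keratinocyte and 4 of 8 fibroblast genes averaged at least 1 CPM, and none of the genes on those lists passed the test.

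The promoter bases of JAG1 and HES1 are shown because these are the 2 members that rose. The sequences are the 250 bases before the RefSeq transcription start (GRCh38.p14), read on the gene's strand, at chr20:10674000-10674249 (minus strand) for JAG1 and chr3:194135898-194136147 (plus strand) for HES1. Capitals mark matches on either strand to the core of the RBPJ motif (GTGGGAA), to a short SMAD-binding box (CAGAC), to the AP-1 motif (TGANTCA) and to the N-box bound by HES repressors (CACNAG).
JAG1: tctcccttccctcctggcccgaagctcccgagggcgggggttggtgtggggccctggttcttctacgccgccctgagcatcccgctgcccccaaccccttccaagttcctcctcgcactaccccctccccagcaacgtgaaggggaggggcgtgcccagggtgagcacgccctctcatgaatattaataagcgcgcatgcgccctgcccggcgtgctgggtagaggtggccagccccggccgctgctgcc
HES1: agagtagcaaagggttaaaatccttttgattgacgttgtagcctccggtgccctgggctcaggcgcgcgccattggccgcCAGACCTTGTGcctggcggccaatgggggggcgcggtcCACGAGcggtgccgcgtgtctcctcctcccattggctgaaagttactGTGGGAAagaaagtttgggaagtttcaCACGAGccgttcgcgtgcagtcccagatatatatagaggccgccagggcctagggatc

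The HES1 window held 1 RBPJ core, whose first base lies 85 bases before the start, 1 SMAD box at 170 bases and 3 N-boxes at 165, 132 and 58 bases. Only the exact letters given above were searched (N is any base), so variant forms of a site were not counted. The JAG1 window held none of these letters, nor the E-box CACGTG, which says only that they are not in this stretch. Among 35116 promoter windows of the same length, the RBPJ core was in 5.43%, the AP-1 motif in 6.57%, the SMAD box in 38.0%, the N-box in 32.0% and the E-box in 6.34%. The JAG1 window was 68.4% G or C and the HES1 window 59.2%, against a median of 58.0% over all windows.

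A RefSeq promoter was matched for 9 of the 10 members. The RBPJ core was found in 3 of the 9, all of them HES or HEY genes, against 5.43% of all windows. The members include known Notch targets, so this count is a description and was not tested against that share. HES1 rose, while HES4 and HEYL had too few reads to be tested, so the core was not set against the changes. The matches are shown with 10 bases on each side. They lie at chr3:194136053-194136079 (HES1, plus strand), chr1:1000158-1000184 (HES4, minus strand) and chr1:39639805-39639831 (HEYL, minus strand), with the core in capitals.
HES1: gaaagttactGTGGGAAagaaagtttg
HES4: tggggcgagtGTGGGAAagaatgcgga
HEYL: gcctagggccTTCCCACggctcggcgg

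HES1 and HES4 carried the core in the same direction at 85 and 77 bases before their starts, and HEYL carried it on the other strand at 178 bases. NOTCH3 held 1 N-box, and the windows of JAG2, NOTCH1, NOTCH2 and NRARP held none of the motifs searched.

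Among the ligands, JAG1 rose. JAG1 encodes Jagged-1, a membrane-bound ligand, and lies on chromosome 20 at 10637684 to 10673999 (GRCh38, GENCODE 29). Its level was 43.5, 46.5 and 44.4 CPM in Vehicle replicates 1, 2 and 3 and 145.9, 134.0 and 137.1 CPM in TGFB1 replicates 1, 2 and 3. Every TGFB1 library lay far above every Vehicle library, and the spread inside each group was small beside the gap. The change was 3.10-fold (95% interval 2.86 to 3.37), a log2 fold change of 1.63 ± 0.06 (SE, edgeR quasi-likelihood test, adjusted p = 1.16e-20), and 1.62 on the log2 scale without Vehicle replicate 1. In bulk RNA, more cells that express a gene and more of its RNA per cell cannot be told apart. An annotated gene on the other strand, AL050403.2, shares 79 exonic bases with JAG1, and it had 0 or 1 count in each library.

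The second Jagged gene, JAG2, was barely detected. It had 0, 4 and 19 counts in Vehicle replicates 1, 2 and 3 and 12, 3 and 4 counts in TGFB1 replicates 1, 2 and 3, and the groups overlapped. These counts were too low for the filter, so JAG2 was not tested, and a difference was not detectable at such counts. A same-strand gene, AL512356.1, shares 469 exonic bases with JAG2 (7.33% of its exonic bases) and had 0 counts in each library. The counting mode is not stated, so reads from those bases may have been left uncounted.

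None of the 3 receptor genes passed the test. NOTCH2 had 198.0, 236.4 and 205.5 CPM in Vehicle and 226.1, 201.3 and 214.3 CPM with TGFB1, so the groups overlapped throughout. Its log2 fold change was 0.00 with a 95% interval from -0.12 to 0.12 (edgeR, adjusted p = 0.994), or 0.92-fold to 1.09-fold. Leaving out 1 library moved the log2 fold change to between -0.04 and 0.09. NOTCH2 shares near-identical exons with the NOTCH2NL genes. Of these, NOTCH2NLA had 324 to 568 counts per library, against 4841 to 7425 for NOTCH2, while NOTCH2NLB, NOTCH2NLC and NOTCH2NLR had no row. Reads from the shared exons could be counted for either gene or for none. The level of NOTCH2 relative to other genes, given below, is uncertain for that reason.

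NOTCH1 was the one receptor gene near the threshold. It had 29.5, 26.9 and 34.0 CPM in Vehicle and 36.1, 32.2 and 43.4 CPM with TGFB1. TGFB1 replicate 2 lay below Vehicle replicate 3, so the groups overlapped in that pair. The log2 fold change was 0.30 ± 0.10 (SE; 95% interval 0.10 to 0.50) with an adjusted p = 0.113 (edgeR), and DESeq2 and limma-voom gave adjusted p = 0.112 and 0.147. The outcome turned on single libraries, since NOTCH1 passed when Vehicle replicate 3 was left out (0.40, edgeR adjusted p = 0.00535) or TGFB1 replicate 2 was (0.40, adjusted p = 0.0195), while with TGFB1 replicate 3 left out it stood at 0.18 (adjusted p = 0.633).

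NOTCH3 was the least abundant receptor gene of the 3 per length. It had 3.44, 3.45 and 3.97 CPM in Vehicle and 4.26, 3.67 and 3.99 CPM with TGFB1, with overlapping groups. Its log2 fold change of 0.13 had a wide 95% interval, from -0.25 to 0.51 (edgeR, adjusted p = 0.863).

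**Figure D1:**
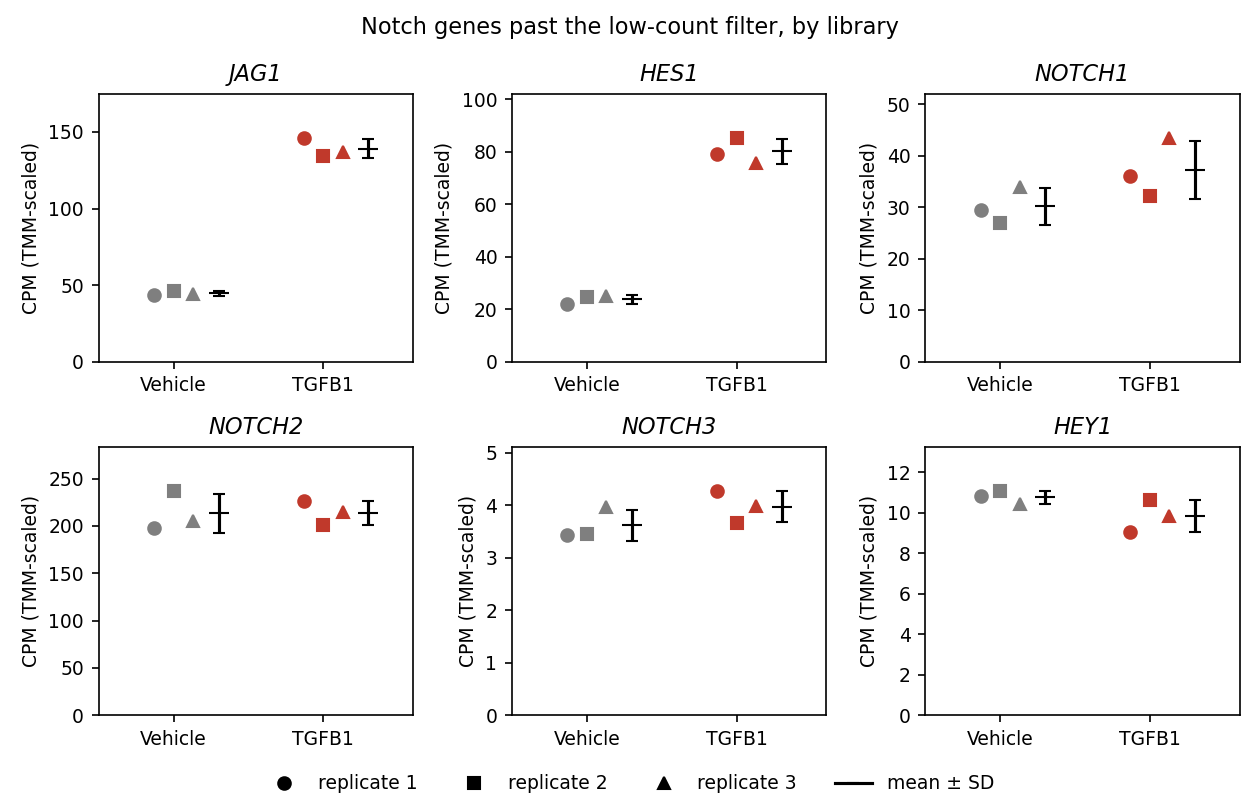
Level in CPM (vertical axis, from 0, a separate scale for each gene) of the 6 Notch genes past the low-count filter in each library of Vehicle (grey) and TGFB1 (red), with marker shapes for replicates and bars for the mean ± SD of 3 libraries. JAG1 and HES1 separate the groups with no overlap, and the other 4 genes overlap.

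Of the repressor genes, HES1 and HEY1 were abundant enough to test, and HES1 passed. HES1 lies on chromosome 3 at 194136145 to 194138732, and its protein also represses its own gene. Its level was 22.0, 24.5 and 24.9 CPM in Vehicle replicates 1, 2 and 3 and 79.3, 85.1 and 75.8 CPM in TGFB1 replicates 1, 2 and 3. All 3 TGFB1 libraries were above all 3 Vehicle libraries. The change was 3.35-fold (95% interval 3.03 to 3.71), a log2 fold change of 1.75 ± 0.07 (SE, edgeR, adjusted p = 4.72e-19), and 1.70 on the log2 scale without Vehicle replicate 1.

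HEY1, which encodes a repressor of the related HEY family and lies on chromosome 8 at 79764010 to 79767863, did not follow. It had 10.8, 11.0 and 10.4 CPM in Vehicle and 9.04, 10.6 and 9.83 CPM with TGFB1. TGFB1 replicate 2 lay among the Vehicle libraries and the other 2 lay below them. The log2 fold change was -0.13, with a 95% interval from -0.37 to 0.12 (edgeR, adjusted p = 0.763).

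The remaining repressor genes were at the limit of detection. HES4, a HES1 relative, had 6, 11 and 7 counts in Vehicle and 11, 6 and 7 with TGFB1, the same 24 counts in each group. HEYL had 0 counts in each Vehicle library and 3, 1 and 0 counts in TGFB1 replicates 1, 2 and 3. NRARP, whose protein binds the Notch complex and dampens it, had 4 counts in Vehicle replicate 2 and 0 in the other 5 libraries. A count of 0 allows up to 3 counts, which is 0.0862 to 0.123 CPM depending on the library and covers counting error only. None of these genes was tested, and no fold change is given for them.

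**Figure D2:**
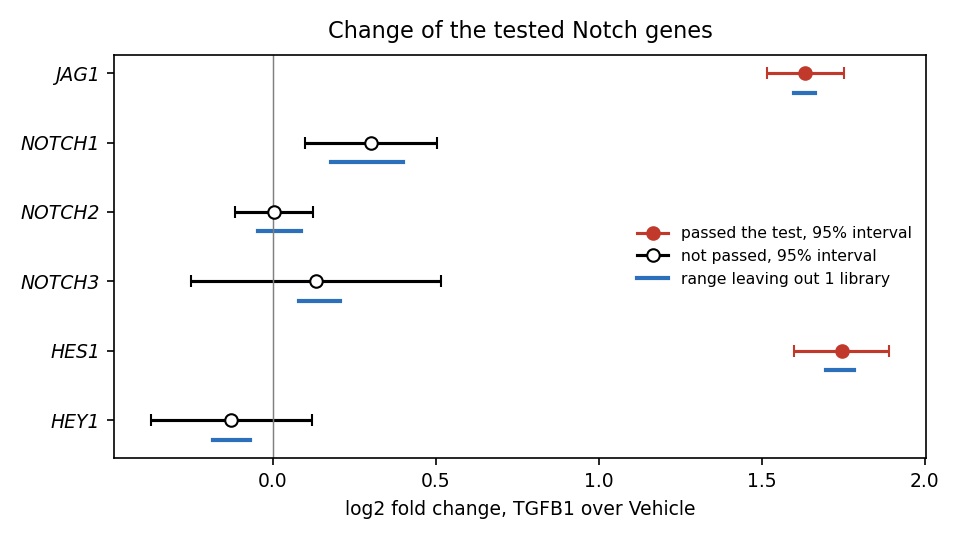
Log2 fold change (horizontal axis, TGFB1 over Vehicle) of the 6 tested Notch genes, with 95% intervals around each point and, in blue, the range over fits that leave out 1 library. JAG1 (1.63) and HES1 (1.75) lie far from 0, the interval of NOTCH1 runs from 0.10 to 0.50 although its adjusted p was 0.113, and those of NOTCH2, NOTCH3 and HEY1 include 0.

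Of the 6 tested members, 2 were higher and 0 lower by edgeR, as also by DESeq2 and limma-voom. An unadjusted edgeR p under 0.05 was seen in 3 of the 6, against 2048 of all 16690 tested genes. Over all 16690 tested genes, 3.31% passed the test, 2.43% higher and 0.887% lower, and in 16.4% the TGFB1 libraries lay wholly above or below the Vehicle libraries, as in 2 of the 6 members. The members were chosen with results known, so these shares are a description. By the size of the log2 fold change HES1 was number 39 and JAG1 number 46 of the 405 genes that rose, and by p-value JAG1 was number 7 and HES1 number 10 of the 16690 tested. Larger absolute changes than that of HES1 were seen in 0.329% of tested genes, and larger ones than that of NOTCH2 in 97.8%.

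Ratios of counts within a library do not depend on the scaling between libraries. Only their change between groups is read here, because the genes differ in length. The pairs were chosen with the changes of the genes known, so the ratios restate those changes and are not separate support. The HES1 to HEY1 ratio was 2.03, 2.22 and 2.40 in Vehicle and 8.76, 8.005 and 7.72 with TGFB1. All 3 TGFB1 libraries exceeded all 3 Vehicle libraries, a difference of 1.88 on the log2 scale (exact permutation test, two-sided p = 0.1, which is the smallest that 3 against 3 libraries allow, 0.2 after Benjamini-Hochberg adjustment over 4 ratios). The ratio of JAG1 to NOTCH2, the receptor gene with the most RNA, was 0.220, 0.197 and 0.216 in Vehicle and 0.646, 0.666 and 0.640 with TGFB1. Again the groups did not overlap (1.63 on the log2 scale, exact permutation p = 0.1, adjusted 0.2). By contrast, the HES1 to JAG1 ratio was 0.505, 0.528 and 0.562 in Vehicle and 0.543, 0.635 and 0.553 with TGFB1. The groups overlapped, and the difference of 0.12 on the log2 scale was within the spread of the libraries (exact permutation p = 0.3, adjusted 0.3). The NOTCH1 to NOTCH2 ratio also overlapped between the groups (0.29 on the log2 scale, exact permutation p = 0.3, adjusted 0.3).

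Levels of different genes were compared as CPM per kilobase of annotated exon. In Vehicle, NOTCH2 (12.7 ± 1.21, SD, n = 3) and HES1 (11.6 ± 0.782) led and their libraries overlapped. JAG1 came next at 4.82 ± 0.164 CPM per kilobase, followed by HEY1 (3.33 ± 0.0999) and NOTCH1 (2.91 ± 0.343), which overlapped, and then NOTCH3 (0.385 ± 0.0321) and HES4 (0.241 ± 0.0740). JAG2, NRARP and HEYL came last, at 0.0353, 0.0248 and 0 CPM per kilobase.

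With TGFB1 the order at the top changed. HES1 led at 38.8 ± 2.27 CPM per kilobase (SD, n = 3), ahead of JAG1 at 14.95 ± 0.666 and NOTCH2 at 12.7 ± 0.738, and the libraries of these 3 genes did not overlap with each other. NOTCH1 (3.59 ± 0.548) and HEY1 (3.04 ± 0.245) overlapped, and with the longest transcript as the length HEY1 stood above NOTCH1 (4.28 and 4.00 CPM per kilobase). That length left the order of HES1, JAG1 and NOTCH2 as it was in each group.

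**Figure D3:**
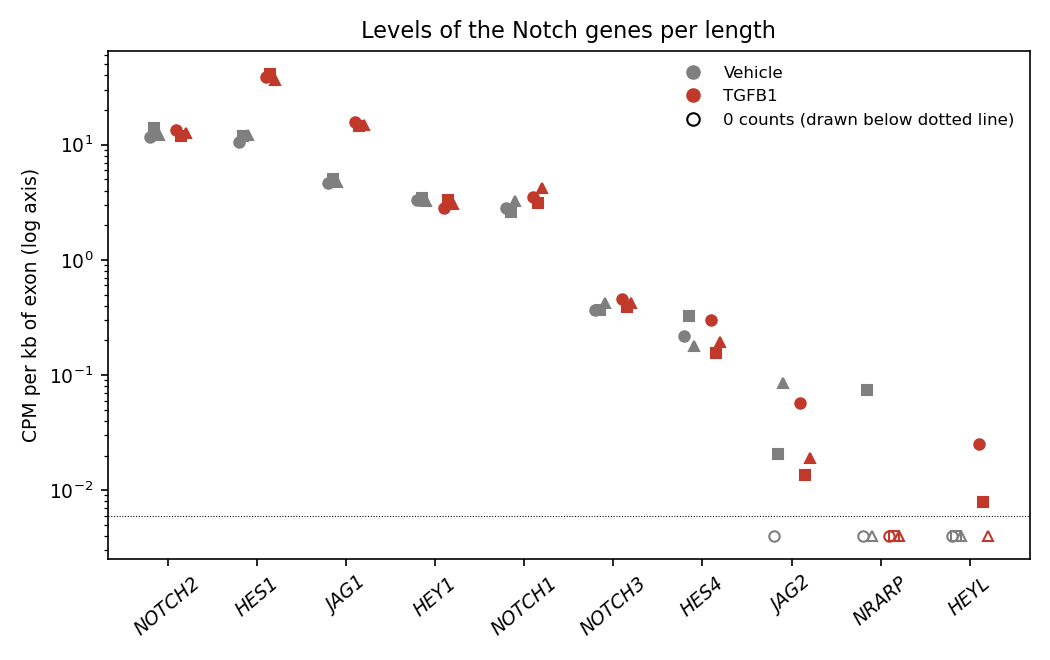
Level per kilobase of annotated exon (vertical log axis, CPM per kb) of the 10 Notch genes in each Vehicle (grey) and TGFB1 (red) library, with circles, squares and triangles for replicates 1, 2 and 3, and open markers below the dotted line for libraries with 0 counts. HES1 and JAG1 shift upward with TGFB1, 3 receptor genes span from 0.385 (NOTCH3) to 12.7 (NOTCH2) in Vehicle, and JAG2, NRARP and HEYL have libraries at 0.

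The rest of the pathway was read from a list of 62 further genes, all with a row, of which 57 were tested. By edgeR 3 of these 57 rose and 0 fell, as also by DESeq2 and limma-voom, or 5.26% against 3.31% of all tested genes. The median log2 fold change was 0.03 in the list and -0.01 over all tested genes, and 9 of the 57 had an unadjusted p under 0.05, against 2048 of 16690. For 8 of the 57 the TGFB1 and Vehicle libraries were fully separate (14.0%, against 16.4% of all tested genes), 5 of them higher and 3 lower with TGFB1. The 3 that rose were LFNG, FURIN and TLE3.

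LFNG encodes Lunatic fringe, a Golgi enzyme that adds a sugar to fucose on Notch receptors and so changes which ligands they respond to. It had 5.44, 3.88 and 4.597 CPM in Vehicle and 9.17, 8.52 and 8.60 CPM with TGFB1, with no overlap. The log2 fold change was 0.92 ± 0.15 (SE, edgeR, adjusted p = 8.03e-05). MFNG, the gene of a second fringe enzyme and named after its value was seen, had 0.785 ± 0.0358 CPM (SD, n = 3) in Vehicle and 1.65 ± 0.315 CPM with TGFB1, without overlap, but did not pass (log2 fold change 1.07 ± 0.34, edgeR adjusted p = 0.0948). The other 6 genes of receptor glycosylation had log2 fold changes from -0.04 to 0.03.

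FURIN encodes the convertase that cuts the Notch precursor on its way to the cell surface, and it also processes the precursors of TGF-beta and many other secreted proteins. It had 47.1, 44.9 and 51.8 CPM in Vehicle and 75.3, 62.3 and 72.3 CPM with TGFB1. The groups did not overlap, and the log2 fold change was 0.55 ± 0.07 (SE, edgeR, adjusted p = 1.73e-06). The other 8 genes of receptor cleavage did not pass, among them the sheddase gene ADAM10 (323.5 CPM in Vehicle, log2 fold change -0.02), named after its value was seen.

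TLE3 encodes a Groucho-family co-repressor, the kind that HES proteins recruit through their last residues. It had 26.5, 25.0 and 30.5 CPM in Vehicle and 39.3, 34.3 and 39.9 CPM with TGFB1. All TGFB1 libraries were above all Vehicle libraries, with a log2 fold change of 0.47 ± 0.09 (SE, edgeR, adjusted p = 0.000363). Its relatives TLE1 (-0.02), TLE2 (0.19) and TLE4 (0.03), named after their values were seen, did not pass.

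**Figure D4:**
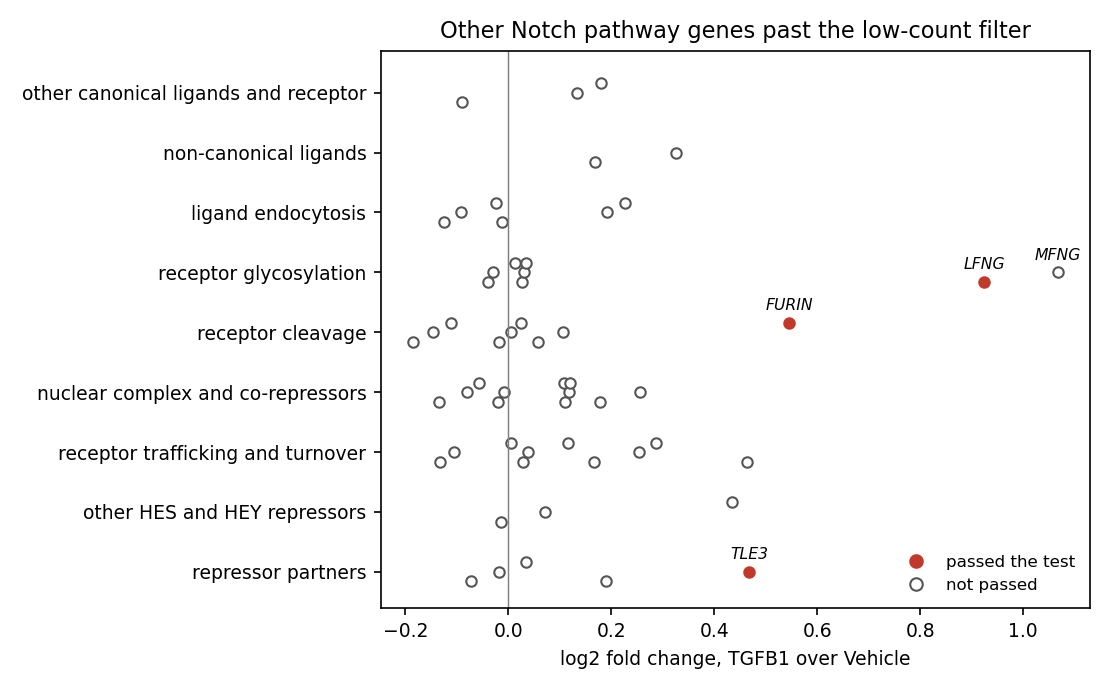
Log2 fold change (horizontal axis, TGFB1 over Vehicle) of the 57 tested genes of the wider Notch pathway, 1 row per role and 1 point per gene, with vertical offsets inside a row only to separate points. LFNG, FURIN and TLE3 (red) passed the test, MFNG (1.07) did not, and most other genes lie near 0.

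In the other roles no gene passed. Of the DLL genes and the receptor gene NOTCH4, DLL3 was the most abundant, with 9.33 CPM in Vehicle against 8.77 CPM under TGFB1. Among non-canonical ligands, DNER stood at 3.79 and 4.23 CPM. The ubiquitin ligase gene MIB1, which drives ligand uptake, stood at 112.1 and 102.8 CPM (log2 fold change -0.13, edgeR adjusted p = 0.34), and its TGFB1 libraries were all below its Vehicle libraries. RBPJ, the DNA-binding partner of cleaved Notch, stood at 192.1 CPM with TGFB1, with a log2 fold change of -0.06 ± 0.05 (SE). The turnover gene ITCH stood at 92.3 and 94.7 CPM, and HES6, the most abundant of the other HES and HEY genes, at 4.90 and 5.14 CPM. Without Vehicle replicate 3, in a fit that called 923 genes in all against 553, 5 genes of the list rose, the added ones being the endocytic adaptor gene EPN1 (0.33) and the co-activator gene MAML1 (0.36), both named after their values were seen.

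The genes whose pattern over the 6 libraries was nearest to that of JAG1 and of HES1 were taken from 13465 genes with a mean of at least 1 CPM, by the root mean square distance between their centred log2 CPM. For JAG1 they were the T-box repressor gene TBX3 (distance 0.06), the SMAD corepressor gene SKIL (0.10), ENC1 (0.10), DACT1 (0.10) and the growth factor gene PDGFA (0.11). For HES1 they were DACT1 (0.07), the coagulation initiator gene F3 (0.08), PDGFA (0.10), the AP-1 gene JUNB (0.11) and TBX3 (0.12). TBX3, DACT1 and PDGFA were on both lists, and the distance between JAG1 and HES1 themselves was 0.10. The log2 fold changes of these 7 genes ran from 1.47 (SKIL) to 1.86 (JUNB), so the measure mainly picks genes with a similar size of change.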

How the data were processed

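The authors deposited raw read counts per gene (HTSeq), which were used as deposited. Per the submitters' processing notes, reads were trimmed with cutadapt and aligned with TopHat2 2.1 to GRCh38. Which annotation release, counting mode and strand setting they used is not stated there. The labels name polyA RNA, while their extraction protocol describes ribosomal RNA depletion. Low counts were removed by filterByExpr (minimum count 10, minimum total 15) before TMM scaling. The quasi-likelihood test of edgeR 4.0.16 (R 4.3.3, robust dispersion) was used, group as sole term, all 6 libraries, Benjamini-Hochberg over 16690 genes, threshold 0.05. The SE is the absolute log2 fold change over the square root of F. The test was tested on simulated data drawn with its own fitted dispersion, and no result here draws on that outcome. Levels per kilobase used the union of GENCODE 29 exons, and promoters and their motifs came from RefSeq on GRCh38.p14. Symbols were matched for 56948 of 58051 IDs. No library copied another: the mean squared difference of same-group pairs was 5.07 to 25.6 times the variance that counting error predicts. The highest value was that of Vehicle replicates 1 and 3. Vehicle replicate 3 against the TGFB1 libraries gave 11.05 to 14.52. Named genes are the 10 members, the wider-list genes that passed or else the most abundant of their role, SMAD7 and SKIL as response genes, and the 5 nearest patterns to JAG1 and HES1; marker genes, genes that share sequence or bases with a member, and genes picked by value (each marked so in the text) come on top of it. Members, lists and tests were chosen with earlier results of these data known. Alternatives were other scalings, filters, DESeq2 1.42.0, limma-voom (limma 3.58.1), a replicate block, leaving out each library, and another length.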

Additional observations from a re-analysis of the deposited data

How the results depend on the processing

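JAG1 and HES1, and LFNG, FURIN and TLE3 of the wider list, rose and passed the threshold under all 14 alternatives of the gene test, with log2 fold changes from 1.598 to 1.66, 1.70 to 1.78, 0.81 to 1.05, 0.49 to 0.63 and 0.41 to 0.56. NOTCH2, NOTCH3 and HEY1 passed under none. NOTCH1 passed with no low-count filter (0.31, adjusted p = 0.00751) and with a replicate block (0.30, adjusted p = 0.0173), and leaving out 1 library moved it from 0.18 to 0.40 on the log2 scale; the cause was not tested. The marker gene MITF missed the threshold with no low-count filter (adjusted p = 0.0854) and with limma-voom (0.0537). Leaving out 1 library moved the count of all called genes from 553 to between 365 (without TGFB1 replicate 1) and 923 (without Vehicle replicate 3), and that of the wider Notch list from 3 to between 3 and 5. With the replicate block 601 genes were called. The replicate numbers were not taken to pair the libraries, since 0 of 3 same-numbered pairs had a correlation of deviations above 0.1 (-0.03, 0.04 and 0.01) and 1 of 3 Vehicle libraries correlated best with its own number. With the longest transcript as the length, Vehicle levels per kilobase rose from 4.82 to 7.54 for JAG1 and from 11.6 to 15.1 for HES1. Low counts limit JAG2, HES4, HEYL and NRARP, which had at most 19 counts in any library.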

Other observations

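Outside the tested genes, HES7, a HES-family repressor gene known from the segmentation clock, had 21 counts in the Vehicle libraries together and 43 with TGFB1. Its means were 0.428 CPM with TGFB1 and 0.224 CPM in Vehicle. The groups did not overlap in CPM, but Vehicle replicate 3 and TGFB1 replicate 1 both had 10 counts (0.2873 and 0.3045 CPM). HES7 did not pass the low-count filter and was not tested. The ligand gene DLL4, also too low to test, had values in the opposite order, with 17 counts in the Vehicle libraries and 6 with TGFB1 (means of 0.181 and 0.0611 CPM), its groups separated by a narrow margin (0.1227 CPM in Vehicle replicate 1 and 0.1218 CPM in TGFB1 replicate 1). NUMBL, whose protein relates to the Notch antagonist NUMB, stood at 3.89 ± 0.327 CPM (SD, n = 3) in Vehicle and 5.36 ± 0.895 CPM with TGFB1, also without overlap, and did not pass (log2 fold change 0.46, edgeR adjusted p = 0.211). NUMB itself stood at 13.96 and 15.2 CPM. All 4 genes were named after their values were seen.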
